A study of Rattus norvegicus with 24 samples.

Results

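Bile acids are made from cholesterol in hepatocytes and are then joined to taurine or glycine, and the RNA of 9 genes of this route was followed in livers of obese and lean Zucker rats. The genes are the bile acid hydroxylases Cyp7a1, Cyp7b1, Cyp8b1 and Cyp27a1, the ring-modifying enzymes Hsd3b7 and Akr1d1, and the N-acyltransferases Baat, Acnat1 and Acnat2. Members were found by gene symbol, and 8 of the 9 had a row among the 23188 transcripts of the table, each with 1 probe set of 10 probes. No row carried the symbol Acnat1, and this gene was not analysed here.

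The study asked whether ecdysterone, a plant steroid that is also the moulting hormone of insects, lowers lipids in obese Zucker rats. Hepatic gene expression was also measured in lean and obese rats, in livers chosen at random from each feeding group. Livers of 24 male Zucker rats were hybridised to Clariom S rat arrays, 1 array per rat and 6 rats per group. The groups were obese rats given ecdysterone (OE), obese rats on the control diet (OC), lean rats given ecdysterone (LE) and lean rats on the control diet (LC). Obese rats were homozygous (fa/fa) and lean rats heterozygous (fa/+) for a defective leptin receptor allele, so that the lean rats also carried 1 copy of it. All rats were 25 weeks old at the start, ate the same basal diet, and received ecdysterone at 0.5 g per kg of feed (OE and LE) or none (OC and LC) for 4 weeks. They were not fasted before the liver was taken. The rats were kept in pairs, and which rats shared a cage is not given in the sources used here, so the spread between rats was taken as that of independent animals. Values are log2 signals per transcript as normalised by the authors, and differences between groups are log2 fold changes ± SE from limma, with p-values adjusted over all 23188 transcripts and a threshold of 0.05. The defining markers of hepatocytes were strong on all arrays, with mean log2 signals of 16.76 to 19.9 over 8 genes.

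Bile acid synthesis starts in the classic pathway with Cyp7a1, the rate-limiting cholesterol 7-alpha-hydroxylase, and in the alternative pathway with Cyp27a1, the mitochondrial sterol 27-hydroxylase, followed by Cyp7b1, the oxysterol 7-alpha-hydroxylase. Cyp8b1, the sterol 12-alpha-hydroxylase, is needed for cholic acid, Hsd3b7 and Akr1d1 alter the steroid ring, and peroxisomal enzymes shorten the side chain. Bile acids that return to the liver repress Cyp7a1 through the nuclear receptors Nr1h4 (FXR) and Nr0b2 (SHP), and Cyp7a1 RNA follows a daily rhythm in rodents.

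The 3 N-acyltransferase genes lie in a row on rat chromosome 5, in the order Acnat2, Acnat1 and Baat, with an Acnat2 pseudogene between the first of them and Acnat1 (RefSeq). Baat encodes the enzyme that joins bile acids to taurine or glycine. In mice Acnat1 joins fatty acids to taurine in peroxisomes, and the enzyme activity of Acnat2 was not measured here. The bases around the annotated transcript start of these genes, 250 before it and 50 after it, are given because Acnat2 changed the most of all members and because Acnat1 resembles it closely there (RefSeq, GRCr8, read 5′ to 3′ on the strand of the gene). Capitals mark TTCNNNGAA, the core of sites bound by STAT factors, and the TATA box sequence TATAAA, and in Acnat2 also the bases aligned with the TTCNNNGAA match of Acnat1.
Acnat2, chr5:68552970-68553269, minus strand: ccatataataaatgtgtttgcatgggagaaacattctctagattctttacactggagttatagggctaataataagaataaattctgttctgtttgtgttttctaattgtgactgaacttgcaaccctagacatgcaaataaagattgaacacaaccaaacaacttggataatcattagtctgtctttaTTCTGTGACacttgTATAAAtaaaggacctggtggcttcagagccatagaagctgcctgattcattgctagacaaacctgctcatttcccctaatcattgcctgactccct
Acnat1, chr5:68597118-68597417, minus strand: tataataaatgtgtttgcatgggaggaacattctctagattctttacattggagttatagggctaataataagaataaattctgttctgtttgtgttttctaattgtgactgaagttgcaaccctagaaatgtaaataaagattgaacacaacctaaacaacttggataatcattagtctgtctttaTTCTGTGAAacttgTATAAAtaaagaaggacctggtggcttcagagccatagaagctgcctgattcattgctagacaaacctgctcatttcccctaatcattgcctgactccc
Baat, chr5:68656088-68656387, minus strand: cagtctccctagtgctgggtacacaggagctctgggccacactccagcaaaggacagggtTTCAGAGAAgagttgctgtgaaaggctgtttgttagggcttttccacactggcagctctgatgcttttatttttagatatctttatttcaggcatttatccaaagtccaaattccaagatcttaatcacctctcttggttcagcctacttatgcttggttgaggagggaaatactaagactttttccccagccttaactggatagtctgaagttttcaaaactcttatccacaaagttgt
The windows of Acnat2 and Acnat1 shared 290 of 300 aligned positions (96.7%), with 6 substitutions and 4 positions in gaps. Acnat1 held TTCTGTGAA, which starts 63 bases before its start site, whereas the aligned bases of Acnat2 read TTCTGTGAC. Counted from 1 at the 5′ end of these 9 bases, with Acnat1 first, the difference is A9C. TATAAA starts 47 bases before the start of Acnat2 and 49 bases before that of Acnat1. Baat held 1 match to TTCNNNGAA, 190 bases before its start. Both strands were searched, and 8.87% of all 33469 rat promoter windows of this length held TTCNNNGAA and 14.2% held TATAAA. Windows were found for 6 of the 9 members. Among the other 3 of these, Hsd3b7 held TTCNNNGAA 70 bases before its start, Cyp27a1 held the nuclear receptor half-site AGGTCA on both strands, as did 16.2% of all windows on at least 1 strand, and Cyp8b1 held none of the 3 sequences. These matches describe the sequence only, and binding was not measured. The RNA of Acnat1 and Acnat2 may be hard to separate by probes. The table does not mark the Acnat2 probe set as cross-hybridising, and how far its probes bind RNA of Acnat1 or of the pseudogene was not tested.

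Acnat2 was the member that separated the genotypes, with a signal in obese livers that was lower than in lean livers by over 7 log2 units on either diet. Its log2 signals in OE were 5.78 at the lowest, 6.38 at the median and 6.6 at the highest, and those in OC were 5.7, 6.51 and 6.68. In LE they were 13.23, 14.11 and 15.5, and in LC 12.06, 14.16 and 14.94. All obese rats were therefore far below all lean rats, with no signal between 6.68 and 12.06. Acnat2 fell by 7.57 ± 0.34 on the log2 scale in OC compared with LC (SE, n = 6 each, 95% confidence interval -8.27 to -6.88), a 190-fold lower signal (adjusted p = 1.89e-15, limma). In OE compared with LE it fell by 7.91 ± 0.34 (SE, n = 6 each, interval -8.61 to -7.21), a 241-fold lower signal (adjusted p = 8.66e-16). In both comparisons this was the largest fall of all transcripts. The means in OE and OC, 6.25 ± 0.33 and 6.38 ± 0.36 (SD, n = 6 each), lay near the 95th percentile (6.37) of the mean signals of 1300 smell receptor transcripts, which are little used in liver. Such weak signals hold a contribution from background, and the fold changes are those of the signals.

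**Figure D1:**
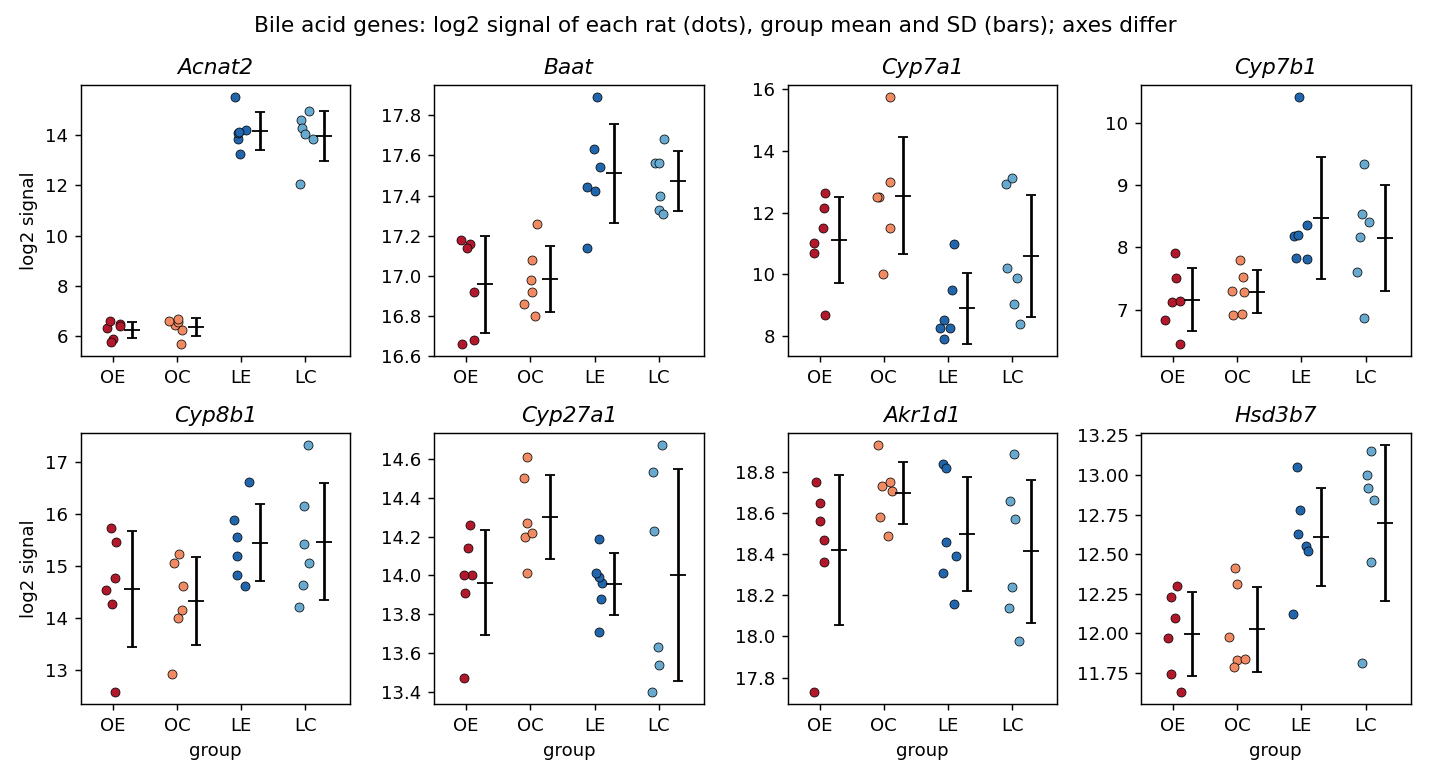
Log2 signals of the 8 measured genes of bile acid synthesis and conjugation in each rat (dots, 6 rats per group; vertical axis in log2 units, scaled separately for each gene), with the group mean and SD as bars, for OE, OC, LE and LC from left to right. Acnat2 lies at or below 6.68 in all obese rats and at or above 12.06 in all lean rats, while most other genes overlap between groups.

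Baat, which joins bile acids to taurine or glycine, had a very strong signal in all rats. Its difference was in the same direction as that of Acnat2 and smaller. Its log2 signals were 16.66, 17.03 and 17.18 (lowest, median and highest) in OE and 16.8, 16.95 and 17.26 in OC, against 17.14, 17.49 and 17.89 in LE and 17.31, 17.48 and 17.68 in LC. All 6 OC rats were below all LC rats, whereas OE and LE overlapped slightly, with 4 of 6 OE rats below all LE rats. Baat fell by 0.56 ± 0.14 on the log2 scale in OE compared with LE (1.47-fold lower, adjusted p = 0.0271). This call was lost under 4 of the other settings, among them the methods' t-test (adjusted p = 0.138), and when LE replicate 11 was left out (adjusted p = 0.0879) or any of 4 other arrays (OE replicates 22 and 24, LE replicates 9 and 12). In OC compared with LC the log2 fold change was -0.49 ± 0.14 (1.4-fold lower signal, adjusted p = 0.0531), just short of the threshold of 0.05. The within-group SD of Baat, 0.21, was lower than that of all but 6.48% of transcripts, so that small differences could be resolved.

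Of the 8 measured members, Acnat2 alone passed the threshold in OC vs. LC, against 2.59% of all transcripts (1.44% higher and 1.15% lower). In OE vs. LE Acnat2 and Baat passed it, both lower, against 2.11% of all transcripts (1.07% higher and 1.04% lower). Acnat2 was the single member past it in the same direction in both comparisons, as were 1.22% of all transcripts. The median log2 fold change of the 8 members was -0.58 in OC vs. LC and -0.59 in OE vs. LE, and that of all transcripts was 0 in both. Members without overlap between the groups numbered 2 in OC vs. LC (Acnat2 and Baat, both lower, against 0.97% of all transcripts) and 1 in OE vs. LE (Acnat2, against 0.953%). The count in OC vs. LC was 2 or 3 under 6 other settings, with Baat or Hsd3b7 or both added, and the count in OE vs. LE was 1 with the methods' t-test and 3, with Cyp7b1 added, under 3 other settings.

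**Figure D2:**
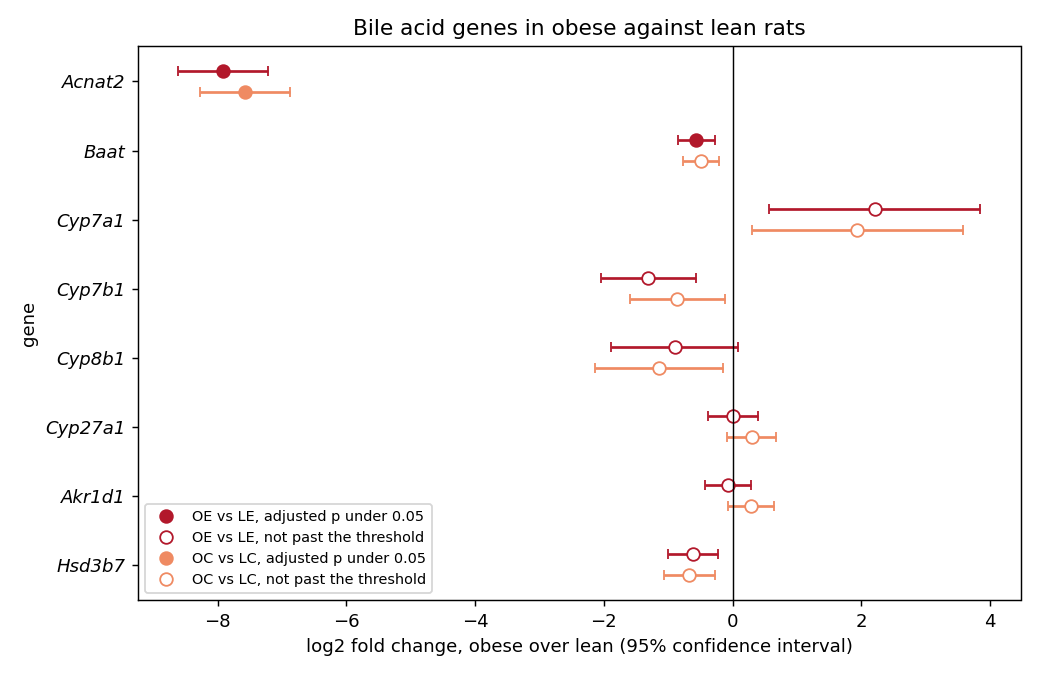
Log2 fold changes (horizontal axis) of the 8 genes in obese compared with lean rats, OE vs. LE above OC vs. LC in each row, with 95% confidence intervals from limma (6 rats per group). Filled symbols mark an adjusted p under 0.05, which only Acnat2 in both comparisons (-7.91 and -7.57) and Baat in OE vs. LE (-0.56) reached.

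Among the measured neighbours of Acnat2 on chromosome 5, Baat was the single one past the threshold in a genotype comparison. Within 1 Mb there were 21 other transcripts, and none of these passed the threshold in OC vs. LC in limma (2 had an unadjusted p under 0.05, and 1, Baat, passed with the methods' t-test), against 2.59% of all transcripts. Their log2 fold changes lay between -0.53 and 0.24 in that comparison and between -0.56 and 0.26 in OE vs. LE, where Baat passed, 1 of the 21, against 2.11% of all transcripts. Many of the 21 had mean signals below the 95th percentile of the smell receptors (6.37). These were Grin3a (3.93), Msantd3 (4.44), Ppp3r2, Col15a1, Tmem246, Nr4a3, Murc, Olr841, Tmeff1 and LOC500460 (6.28). A fall could hardly show in these. Acnat1, which lies between Acnat2 and Baat, had no row and is not among the 21. Baat lies 97.4 kb from Acnat2 in the coordinates of the table. The gene of the leptin receptor (Lepr), which carries the fa allele, lies on the same chromosome at a distance of 55.8 Mb, and Cyp7a1 lies 45.3 Mb from Acnat2 in the opposite direction. The fa allele and other sequence that rats of a genotype inherit with it cannot be told apart in these groups.

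**Figure D3:**
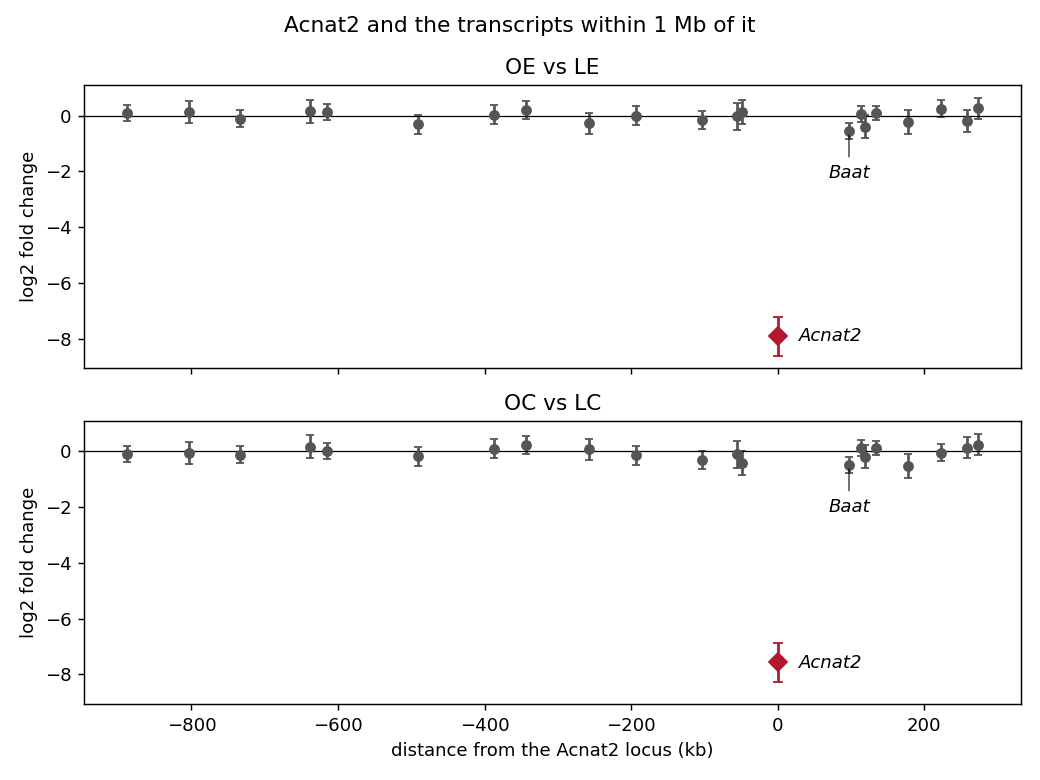
Log2 fold change (vertical axis, with 95% confidence intervals) of Acnat2 (diamond) and of the 21 transcripts within 1 Mb (dots) against the distance from the Acnat2 locus in kb, for OE vs. LE (top) and OC vs. LC (bottom). Acnat2 stands at -7.91 and -7.57, and the other transcripts, many of them with weak signals, stay between -0.56 and 0.26. Acnat1 was not measured.

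Cyp7a1, the rate-limiting enzyme, had higher mean signals in obese rats that did not pass the threshold on either diet, and it had the largest spread of the 8 members within groups. Its log2 signals were 8.7, 11.26 and 12.65 (lowest, median and highest) in OE and 10.01, 12.51 and 15.73 in OC, against 7.91, 8.4 and 10.97 in LE and 8.4, 10.05 and 13.12 in LC. The order of the means was OC (12.54 ± 1.89), OE (11.12 ± 1.39), LC (10.6 ± 1.98) and LE (8.9 ± 1.14, SD, n = 6 each), and the ranges of neighbours in this order overlapped. The log2 fold change was 1.94 ± 0.8 in OC vs. LC (interval 0.3 to 3.58, 3.84-fold higher signal, adjusted p = 0.264) and 2.21 ± 0.8 in OE vs. LE (interval 0.57 to 3.85, 4.64-fold higher signal, adjusted p = 0.188), so that neither passed the threshold. In OE vs. LE a fit of these groups alone gave an adjusted p of 0.0471. In OC vs. LC the log2 fold change was 1.3 without OC replicate 16, the highest rat, and lay between 1.3 and 2.45 over all single arrays left out. The pooled SD within groups, 1.64, was above that of 99.9% of transcripts, and 6 rats per group leave an interval of ± 1.64 around each difference.

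Cyp8b1 had lower mean signals in obese rats, and the groups overlapped widely. Its signals were 12.57, 14.65 and 15.74 in OE and 12.91, 14.39 and 15.24 in OC, against 14.62, 15.38 and 16.62 in LE and 14.2, 15.24 and 17.33 in LC. In each comparison 3 of the 6 obese rats were below all lean rats. The log2 fold change was -1.14 ± 0.48 in OC vs. LC (2.2-fold lower signal, adjusted p = 0.284) and -0.9 ± 0.48 in OE vs. LE (1.86-fold lower signal, adjusted p = 0.466). The value in OE vs. LE was -0.5 without OE replicate 23, the lowest rat of its group, and lay between -1.13 and -0.5 over all single arrays left out.

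Neither enzyme of the alternative pathway passed the threshold in a genotype comparison. Cyp7b1 had signals of 6.45, 7.13 and 7.91 in OE and 6.91, 7.29 and 7.8 in OC, against 7.82, 8.19 and 10.41 in LE and 6.87, 8.28 and 9.34 in LC. Among rats given ecdysterone 5 of 6 OE rats were below all LE rats, while on the control diet the lowest LC rat lay below all OC rats. Its log2 fold change was -1.31 ± 0.36 in OE vs. LE (2.48-fold lower signal, adjusted p = 0.051) and -0.86 ± 0.36 in OC vs. LC (1.82-fold lower signal, adjusted p = 0.274). In OE vs. LE it passed with median centring, quantile normalisation and both filters on weak transcripts (adjusted p of 0.0381 to 0.0481), and when any 1 of 5 arrays was left out (OE replicate 21, LE replicates 9 and 10, LC replicates 3 and 6). Without LE replicate 11, the highest rat, the log2 fold change was -0.92 (adjusted p = 0.138). Cyp27a1, whose signal lay between 13.4 and 14.67 in all 24 rats, had log2 fold changes of 0.3 ± 0.19 in OC vs. LC (interval -0.09 to 0.68, adjusted p = 0.555) and 0.01 ± 0.19 in OE vs. LE (interval -0.38 to 0.39, adjusted p = 0.995). The sign of the value in OE vs. LE turned with median centring.

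The ring-modifying enzymes did not pass the threshold either. Hsd3b7, which acts after the 7-alpha-hydroxylases in both pathways, had signals of 11.63, 12.03 and 12.3 in OE and 11.79, 11.91 and 12.41 in OC, against 12.12, 12.59 and 13.05 in LE and 11.81, 12.88 and 13.15 in LC. Apart from the lowest LC rat, all LC rats were above all OC rats. Its log2 fold change was -0.67 ± 0.19 in OC vs. LC (1.59-fold lower signal, adjusted p = 0.0613) and -0.62 ± 0.19 in OE vs. LE (1.53-fold lower signal, adjusted p = 0.103). Without LC replicate 2, which was this lowest rat, the adjusted p was 0.00473 in OC vs. LC and 0.0462 in OE vs. LE. Akr1d1, the steroid 5-beta-reductase, lay between 17.73 and 18.93 in all rats, with log2 fold changes of 0.29 ± 0.17 in OC vs. LC (interval -0.07 to 0.64, adjusted p = 0.531) and -0.07 ± 0.17 in OE vs. LE (interval -0.43 to 0.28, adjusted p = 0.929).

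The genotype difference averaged over both diets was added after the separate comparisons had been seen, since it draws on all 24 rats, and it is not independent of them. In this average 5 of the 8 members passed the threshold, against 6.52% of all transcripts. Cyp7a1 was higher in obese rats, by 2.08 ± 0.57 on the log2 scale (4.22-fold, adjusted p = 0.0216). Acnat2 (-7.74 ± 0.24, 214-fold lower signal), Baat (-0.52 ± 0.1, 1.44-fold lower, adjusted p = 0.000655), Cyp7b1 (-1.08 ± 0.25, 2.12-fold lower, adjusted p = 0.0065) and Hsd3b7 (-0.64 ± 0.14, 1.56-fold lower, adjusted p = 0.00263) were lower. Cyp8b1 had -1.02 ± 0.34 (2.03-fold lower signal, adjusted p = 0.0737) and passed with a clock score per rat in the model (-1.21, adjusted p = 0.0309) and without OE replicate 21 (adjusted p = 0.043) or LC replicate 2 (0.04), and Cyp27a1 and Akr1d1 had 0.15 ± 0.13 and 0.11 ± 0.12 (adjusted p of 0.622 and 0.733). The call of Cyp7a1 was lost with the methods' t-test (adjusted p = 0.0971), with robust variance estimates (0.0691) and with the clock score (0.0692), where all 5 calls were of lower signals. The other 4 calls held under all 34 alternatives run for each, with adjusted p of at most 0.0221.

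Ecdysterone did not change any member past the threshold. In LE compared with LC 0 of the 8 measured members and 0% of all transcripts passed it in limma, while 1 member and 3.51% of all transcripts had an unadjusted p under 0.05. That member was Cyp7a1, with mean signals of 8.9 ± 1.14 in LE and 10.6 ± 1.98 in LC (SD, n = 6 each) and a log2 fold change of -1.69 ± 0.8 (interval -3.33 to -0.05, adjusted p = 1). This was the most negative fitted value of all transcripts in that comparison, although all but 3 LE rats lay within the range of LC. Cyp7b1 had a log2 fold change of 0.32 ± 0.36 (interval -0.42 to 1.05) and Acnat2 one of 0.21 ± 0.34 (interval -0.49 to 0.9), and both turned negative without LE replicate 11 (-0.07 and -0.06), and Acnat2 also without LC replicate 1 (-0.17). With the methods' t-test 0 members passed after adjustment and 0 had an unadjusted p under 0.05. The other 5 members lay between -0.08 and 0.08.

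In OE compared with OC 0 of the 8 members and 0% of all transcripts passed the threshold in limma, and 0 members and 5.7% of all transcripts had an unadjusted p under 0.05. Cyp27a1 had mean signals of 13.96 ± 0.27 in OE and 14.3 ± 0.22 in OC (SD, n = 6 each), with a log2 fold change of -0.34 ± 0.19 (interval -0.72 to 0.05, adjusted p = 0.887). Cyp7a1 had -1.42 ± 0.8 (interval -3.06 to 0.22, adjusted p = 0.887), with -0.78 without OC replicate 16 and -1.93 without OC replicate 18. This value had rank 3 from the most negative of all transcripts, for a gene whose pooled SD was above that of 99.9% of them. Akr1d1 had -0.28 ± 0.17 (interval -0.63 to 0.08, adjusted p = 0.905). The other 5 members lay between -0.13 and 0.23. With the methods' t-test 0 members passed after adjustment and 1, Cyp27a1, had an unadjusted p under 0.05. The intervals of Cyp7a1 reach from a more than 8-fold lower signal to near equality in both comparisons, so that a large effect of ecdysterone on this gene was neither shown nor bounded closely at this number of rats. An ecdysterone effect averaged over both genotypes was not tested. The ecdysterone effects did not differ between obese and lean rats past the threshold for any member (0 of 8 members and 0% of all transcripts, with 0 members and 3.93% of all transcripts at an unadjusted p under 0.05). The smallest p of this interaction were those of Akr1d1 (-0.36 ± 0.24), Cyp27a1 (-0.29 ± 0.27) and Cyp7b1 (-0.45 ± 0.51), each with an adjusted p of 1.

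Among 12 other genes of the pathway, Amacr and Abcd3 passed the threshold in OC vs. LC, against 2.59% of all transcripts. Amacr alone did so in OE vs. LE, against 2.11% of all transcripts. Amacr, the racemase that turns bile acid intermediates into the form whose side chain can be shortened, had signals of 12.86, 13.81 and 14.35 in OE and 13.11, 13.66 and 13.81 in OC, against 14.75, 14.83 and 15.14 in LE and 14.06, 14.81 and 15.33 in LC. All obese rats were below all lean rats on the same diet, as for 0.97% of all transcripts in OC vs. LC and 0.953% in OE vs. LE. Amacr fell by 1.2 ± 0.22 on the log2 scale in OC vs. LC (2.3-fold lower, adjusted p = 0.00121) and by 1.12 ± 0.22 in OE vs. LE (2.18-fold lower, adjusted p = 0.00351). Abcd3, a peroxisomal transporter of bile acid intermediates, had signals of 13.63, 13.79 and 14.14 in OC, against 12.5, 12.96 and 13.53 in LC, so that all OC rats were above all LC rats. It rose by 0.84 ± 0.15 in OC vs. LC (1.78-fold higher, adjusted p = 0.0013), and in OE vs. LE, where all OE rats (13.52 to 13.97) were also above all LE rats (12.89 to 13.39), the log2 fold change was 0.53 ± 0.15 (adjusted p = 0.0672). The share of all transcripts that were higher without overlap was not counted. With the methods' t-test Amacr alone passed in OC vs. LC and none of the 12 in OE vs. LE. The median log2 fold change of the 12 genes was -0.02 in OC vs. LC and 0.01 in OE vs. LE. The genes that did not pass include the bile acid CoA ligase Slc27a5 (-0.44 ± 0.29 in OC vs. LC and -0.72 ± 0.29 in OE vs. LE) and the peroxisomal oxidase Acox2 (-0.32 ± 0.31 and -0.79 ± 0.31).

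Of 10 regulators of the pathway, Nr0b2, which encodes the repressor SHP, passed the threshold in OC vs. LC, against 2.59% of all transcripts. Its signals were 7.35, 7.73 and 8.44 in OC, against 5.43, 6.39 and 7.55 in LC, and 4 of 6 OC rats were above all LC rats. Nr0b2 rose by 1.37 ± 0.38 on the log2 scale (adjusted p = 0.0428), a call that was lost when any of 9 of the 24 arrays was left out (OC replicates 13, 15, 16 and 17 and LC replicates 1, 2, 3, 4 and 6) and with the methods' t-test (adjusted p = 0.102). In OE vs. LE it had 0.69 ± 0.38 (adjusted p = 0.474). None of the 10 regulators passed there in limma, against 2.11% of all transcripts, or with the methods' t-test (1 had an unadjusted p under 0.05 in each). Cyp7a1, which Nr0b2 is known to repress, also had a higher mean signal in OC than in LC. The bile acid receptor Nr1h4 had log2 fold changes of -0.52 ± 0.19 in OC vs. LC and -0.14 ± 0.19 in OE vs. LE (adjusted p of 0.175 and 0.847). Hnf4a, a nuclear receptor that activates hepatocyte genes, had -0.14 ± 0.24 and -0.55 ± 0.24 (adjusted p of 0.885 and 0.332).

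**Figure D4:**
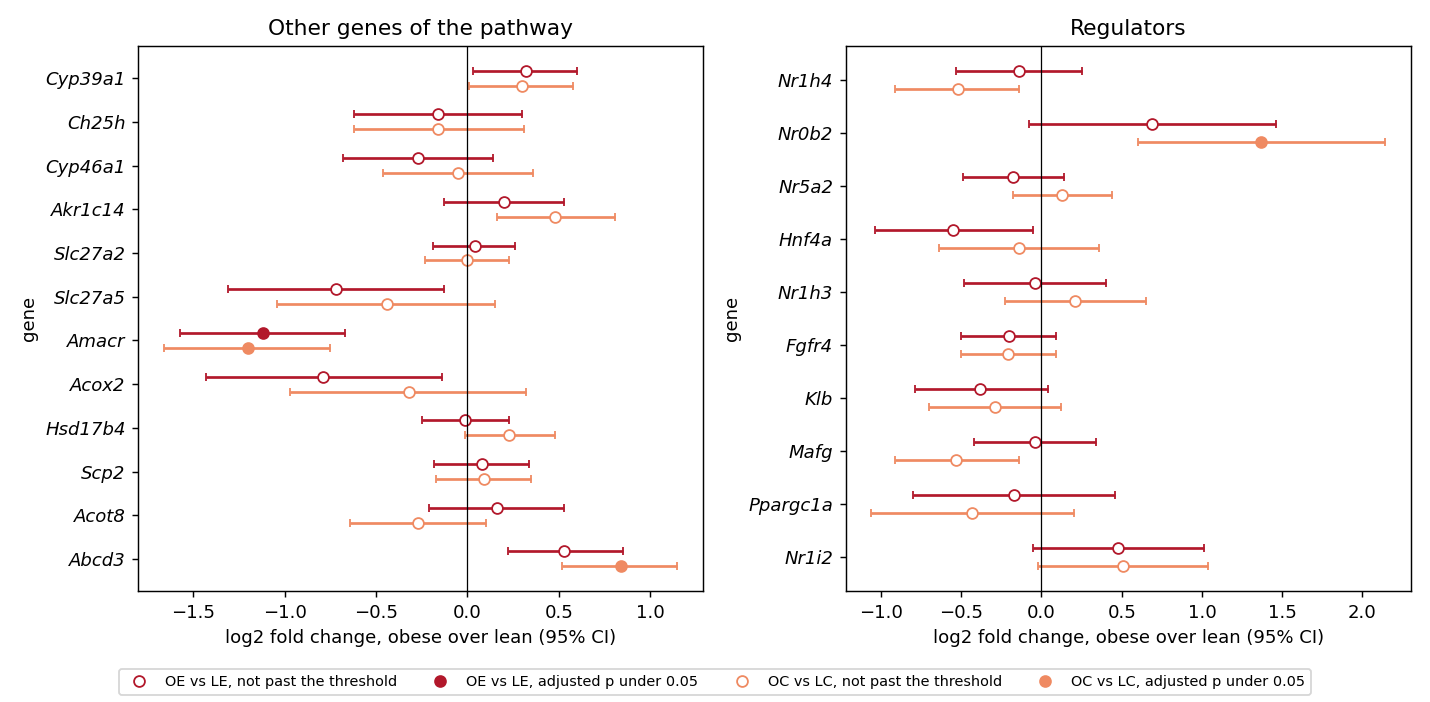
Log2 fold changes (horizontal axis, with 95% confidence intervals) of 12 other genes of bile acid synthesis (left) and of 10 regulators (right), with OE vs. LE above OC vs. LC for each gene. Filled symbols mark an adjusted p under 0.05, which Amacr reached in both comparisons and Abcd3 and Nr0b2 in OC vs. LC.

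The signals of Cyp7a1 were set beside those of the clock genes, because the hour at which each liver was taken is not given in the sources used here. A clock score was formed per rat as the mean log2 signal of Dbp, Nr1d1, Nr1d2, Tef and Per3 minus that of Arntl, Npas2 and Clock. It lay between -1.76 and 3.36 in OE (median 0.83), between -1.81 and 2.43 in OC (0.44), between -4.38 and 1.6 in LE (-1.46) and between -4.95 and 3.25 in LC (0.48). Thus the rats of a group differed widely, and LE had the lowest median. In a model with group means, none of the 8 members followed the score past the threshold in limma (3 had an unadjusted p under 0.05), while 1.36% of all transcripts did. The smallest p were those of Hsd3b7 (0.07 ± 0.03 log2 units per unit of score, adjusted p = 0.218), Akr1d1 (-0.06 ± 0.02, adjusted p = 0.298) and Cyp7a1 (0.27 ± 0.11, adjusted p = 0.32). With the score in the model, the log2 fold change of Acnat2 was -7.57 ± 0.35 in OC vs. LC and -7.89 ± 0.37 in OE vs. LE. That of Cyp7a1 was 1.76 ± 0.73 in OC vs. LC and 1.56 ± 0.78 in OE vs. LE, and -1.42 ± 0.74 in LE vs. LC. Hsd3b7 passed the threshold in both genotype comparisons with the score in the model (-0.72 ± 0.17, adjusted p = 0.0161, and -0.79 ± 0.18, adjusted p = 0.0194), and Baat did not in OE vs. LE (-0.48 ± 0.14, adjusted p = 0.0922).

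**Figure D5:**
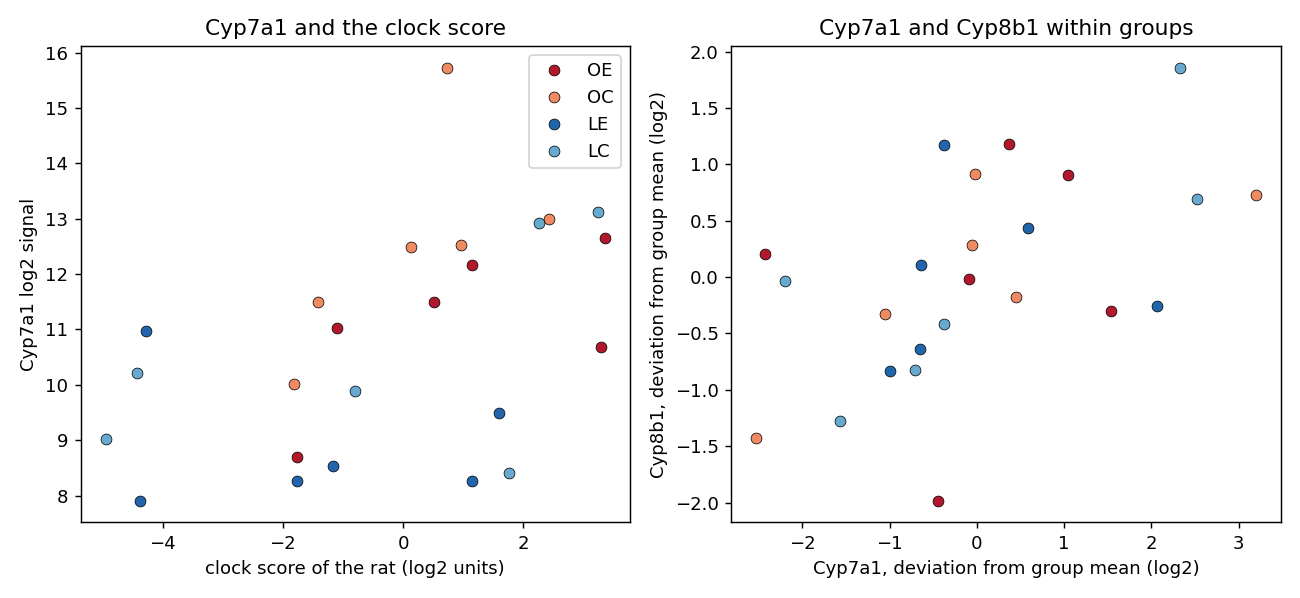
Cyp7a1 log2 signal against the clock score of each rat (left, both axes in log2 units), and the deviation of Cyp8b1 from its group mean against that of Cyp7a1 (right, log2 units), 24 rats coloured by group. The clock score spans -4.95 to 3.25 within LC alone, and the correlation in the right panel is 0.52.

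Within groups the members varied in part together. Over the 24 arrays, the correlation of deviations from the group means was 0.66 for Baat and Cyp7b1, 0.57 for Acnat2 and Baat, 0.52 for Cyp7a1 and Cyp8b1, and 0.48 for Acnat2 and Cyp7b1. Acnat2 and Cyp7a1 were close to unrelated in this respect (0.01), and Baat and Cyp8b1 deviated in opposite directions (-0.41). Each correlation pools rats of all 4 groups, with both genes read on the same array of a rat. The rat with the highest Acnat2, Baat, Cyp7a1 and Cyp7b1 signals of its group was the same one in LE (replicate 11). Its Cyp7b1 and Acnat2 signals were 10.41 and 15.5, against LE means of 8.47 and 14.16. A single rat such as this can weigh heavily on a correlation, and the correlations were not computed without it.

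The transcripts whose log2 signals were most like those of Acnat2 over the 24 arrays were Stac3 (r = 0.981), Agmo (0.967), Hao2 (0.956), Fabp7 (0.954) and Cyp3a18 (0.949), correlations that contain the difference between genotypes. Stac3, known for its part in muscle contraction, had signals of 5.91, 6.51 and 7.74 in OE and 5.29, 6.09 and 6.87 in OC, against 13.14, 14.34 and 15.01 in LE and 12.67, 13.77 and 14.14 in LC, with log2 fold changes of -7.57 ± 0.33 in OE vs. LE and -7.44 ± 0.33 in OC vs. LC. The changes of the others ranged from -1.2 (Agmo, which cleaves ether lipids) to -4.38 (Cyp3a18, a cytochrome P450) in OE vs. LE. By deviations from the group means, Pid1 (0.763), LOC100912059 (0.759), Klhdc8b (0.725), Rpn2 (0.725) and Slc51b (0.719), a subunit of a bile acid exporter, were most like Acnat2. The group means of Slc51b (5.96 to 6.2) and Klhdc8b (5.36 to 5.54) were weak, below the 95th percentile of the smell receptors (6.37). Rad9a (0.828), Fam126b (0.791), Lamtor3 (0.712), Tbccd1 (0.705) and LOC102549059 (0.693) were most like Cyp7a1, and Prss32 (0.854), RGD1310495 (0.826), Cxcl12 (0.808), Haao (0.804) and Trim14 (0.792) were most like Cyp8b1. These are the top 5 of all transcripts for each gene, chosen by rank.

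Markers of other cell types were compared between the groups, since in whole liver fewer cells of a type and less RNA per cell cannot be told apart. Of 8 hepatocyte markers, none fell and 1 rose in each genotype comparison, and their mean log2 signal lay between 18.92 and 19.08 in OC and between 18.81 and 19.05 in LC. The mean of the strongest marker was 19.9, and the highest signal of all arrays was 19.93. Whether differences are compressed at this end of the scale was not tested. All 4 red blood cell markers rose in OC vs. LC (mean signal 9.44 to 10.1 in OC and 8.27 to 8.9 in LC) and 1 of 4 in OE vs. LE (9.02 to 9.86 in OE and 8.28 to 9.08 in LE). Of 6 stellate cell markers 2 rose in each comparison (8.88 to 9.54 in OC and 8.69 to 9.13 in LC). Of all transcripts 1.44% rose past the threshold in OC vs. LC and 1.07% in OE vs. LE. The marker lists were chosen with earlier results of these data known. None of the 5 bile duct, 5 macrophage and 4 endothelial markers passed the threshold in either comparison. The part of blood in the liver samples in the differences of the members was not tested.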

How the data were processed

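The values are from 24 Clariom S arrays, 1 per rat. The authors computed the deposited log2 signals per transcript with GCCN-SST-RMA in Expression Console 1.4. Its steps, among them background correction, normalisation between arrays and summary over probes, could not be varied here. How far they compress or enlarge differences was not tested. The authors' own comparisons in that table (log2 ratios, fold changes and p-values) were not used. A second deposited table of log2 signals differed by at most 0.005. The genome build of the coordinates is not given in the sources used here, so only chromosomes and distances are printed.

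Rows were taken by gene symbol (the probe set with the highest mean where there were several). All 23188 transcripts entered 1 model of limma (version 3.58.1, under R 4.3.3) with 4 group means and eBayes, and p-values were adjusted by Benjamini and Hochberg over all transcripts of a comparison (threshold 0.05). Fold changes are differences of mean log2 signals, given ± SE. The fitting code was tested on simulated data. The number of arrays limits the precision.

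Members and gene lists were chosen with earlier results of these data known. All members were named for the genotype comparisons, the 3 with the smallest p for the others, and of other lists those past the threshold. Slc27a5, Acox2, Nr1h4 and Hnf4a were named after their values were seen. Alternatives were the methods' t-test, limma on the compared groups alone, median centring, quantile normalisation, filters on weak transcripts, array weights, trended and robust variances, the second table, averaged probe sets, a clock score as covariate and leaving out each array in turn. The genotype difference averaged over both diets was added after seeing the data. Promoter windows came from RefSeq (GRCr8).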

Additional observations from a re-analysis of the deposited data

Results flagged for a closer look

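Of 32 groups of member signals (8 genes in 4 groups of 6 rats), 1 held a rat far from the others, where chance flags about 1 in 20 groups. This was Cyp7b1 in LE replicate 11, with a log2 signal of 10.41, while the other 5 LE rats lay between 7.82 and 8.36. The same rat had the highest signals of LE for Acnat2 (15.5), Baat (17.89) and Cyp7a1 (10.97) and a low clock score (-4.27).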

How the results depend on the processing

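The fall of Acnat2 held in OC vs. LC and OE vs. LE under all 35 alternatives, with log2 fold changes of -7.95 to -7.38 and -8.1 to -7.64, and 0 members passed in LE vs. LC, OE vs. OC and the interaction under all alternatives run. The count of members past the threshold in OC vs. LC (1 of 8) was 2 with the methods' t-test, without the lowest 25% of transcripts, with array weights and with the clock score, and 3 without transcripts below the median and with trend and robust variances. It was 1 to 2 when single arrays were left out (2 without OE replicate 22 or 24, OC replicate 13 or 18, LE replicate 10 or 11 or LC replicate 2). In OE vs. LE (2 of 8) it was 1 with the methods' t-test, 3 with median centring and both filters on weak transcripts, and 1 to 3 when single arrays were left out (1 without OE replicate 22 or 24 or LE replicate 11 or 12, 3 without OE replicate 21, LE replicate 10 or LC replicate 2, 3 or 6). It stayed at 2 with Baat replaced by Cyp7a1 (higher) in a fit of these groups alone, by Cyp7b1 with quantile normalisation and by Hsd3b7 with the clock score. Other genes of the pathway numbered 1 in place of 2 in OC vs. LC with the methods' t-test, and in OE vs. LE, in place of 1, they numbered 0 with the methods' t-test, 2 without transcripts below the median, with trend and robust variances and with the clock score, and 1 to 2 when single arrays were left out. Regulators in OC vs. LC numbered 0 in place of 1 with the methods' t-test and with trend and robust variances, and 0 to 1 when single arrays were left out. Neighbours of Acnat2 in OC vs. LC numbered 1 (Baat) in place of 0 with the methods' t-test, both filters on weak transcripts, trend and robust variances and array weights, and 0 to 1 when single arrays were left out.

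Directions turned only for values that were smaller in size than their SE. Cyp27a1 in OE vs. LE had -0.01 with median centring and -0.05 to 0.11 when single arrays were left out, and Akr1d1 had 0.07 with the clock score and -0.14 to 0.07. In LE vs. LC, Cyp7b1 had -0.07 to 0.55 and Acnat2 -0.17 to 0.41 when single arrays were left out. Filters test fewer transcripts, which eases the adjustment, and the cause of the other changes was not tested. No paired analysis was possible because the groups share no replicate numbers. Weak signals, such as Acnat2 in obese rats, hold a contribution from background, and its effect on the size of a fold change was not tested.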
